A study of Mus musculus with 10 samples.

Results

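The postsynaptic density scaffolds described here are 9 genes, Dlg1, Dlg2, Dlg3, Dlg4, Shank1, Shank2, Shank3, Homer1 and Dlgap1, picked by symbol out of the 56884 gene rows of a hippocampal RNA-seq count table. The 10 libraries came from 10 female mice of the P301S line (PS19), which carry human Tau (1N4R, P301S) driven by the mouse Prnp (prion protein) promoter, which is active beyond the hippocampus. Their ovaries were intact, and treatment through SILASTIC tubing placed under the skin began at 6 months of age and lasted 12 weeks. In 5 mice the 10 mm tubing was void, and in the other 5 it was packed with dihydrotestosterone (DHT), an androgen that aromatase does not turn into estrogen. The comparison addresses how a raised androgen level acts on the female hippocampus while Tau pathology develops.

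The postsynaptic density is the protein mesh beneath the receptor-bearing membrane of excitatory synapses. In it, Dlg proteins hold glutamate receptors and adhesion proteins near the membrane, Dlgap proteins link the Dlg layer to the Shank layer below, and Homer joins Shank to metabotropic receptors and calcium stores. These scaffolds are among the most abundant proteins of hippocampal excitatory synapses, and their loss or mutation alters synaptic transmission and behaviour in mice.

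Total counts per library ranged from 27188854 to 47113661 in void mice (median 32844884) and from 33523527 to 45947784 in DHT mice (median 36379142), with no detected difference (two-sided exact permutation p = 0.365). All 9 scaffold genes passed the filter on low counts with 4340 to 39225 counts per library, so counting error is small beside the spread between mice. Together they took up between 0.337% and 0.451% of a library's counts. Since each library is 1 mouse, errors and p-values measure the spread between mice. In bulk tissue, fewer neurons and less scaffold RNA per neuron cannot be told apart.

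Scaled by annotated exon length, the mean level in void mice was highest for Shank1, at 69.7 ± 9.07 RPKM (SD, n = 5), and lowest for Dlg1, at 15.6 ± 1.15 RPKM. Between them stood, by mean RPKM in void mice, Dlg4 (54.5), Dlgap1 (48.1), Dlg3 (45.4), Dlg2 (34.3), Shank3 (29.8), Shank2 (25.0) and Homer1 (18.5). The ends of this order were apart in every void mouse, whereas 3 pairs of neighbours were not ordered the same way in all 5. Dlg2 exceeded Shank3 in 3 of 5 void mice, Dlgap1 exceeded Dlg3 in 4 of 5, and Homer1 exceeded Dlg1 in 4 of 5. The order also rests on the length used. Per kb of coding sequence, Dlg4 had the highest mean CPM in void mice, at 314 ± 19.7 (SD), Shank1 stood at rank 5 with 113 ± 14.7, and Shank2 was lowest at 48.8 ± 2.80.

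**Figure D1:**
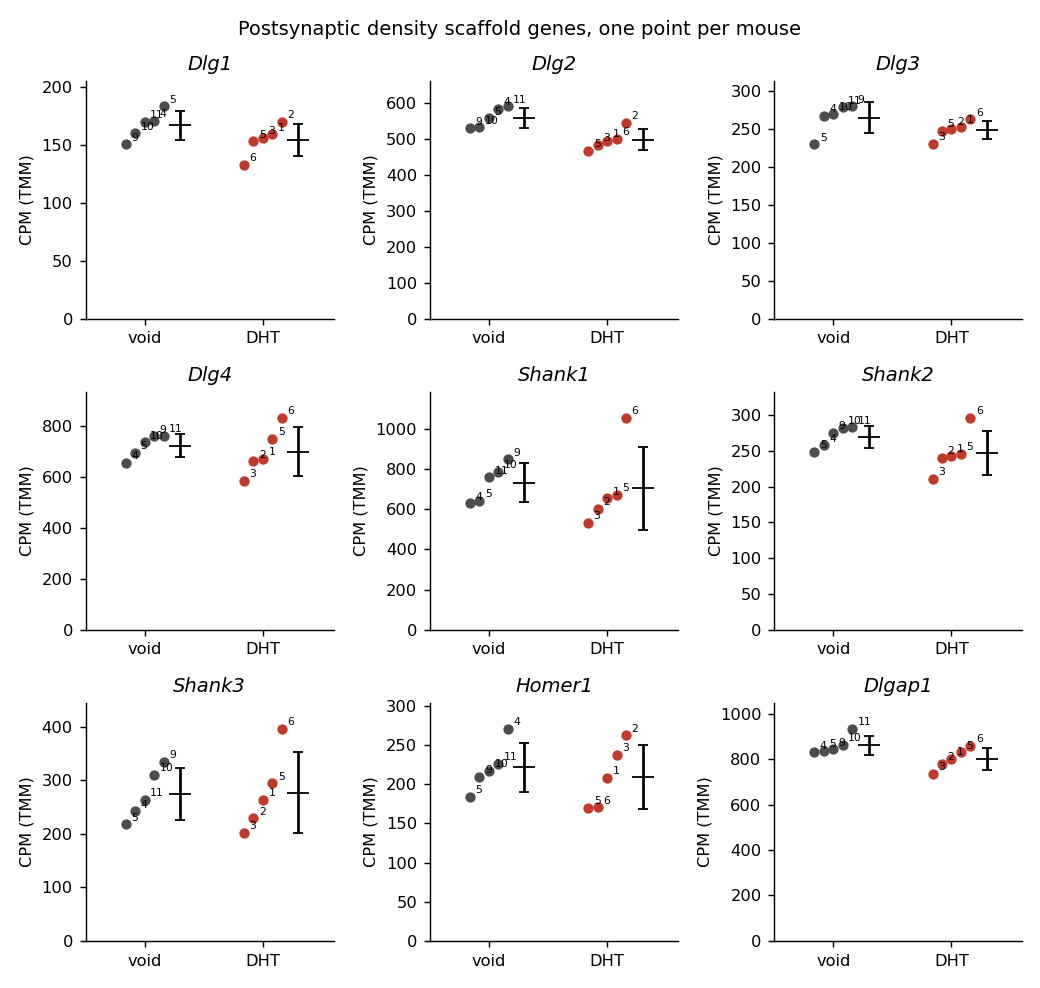
TMM-scaled CPM (counts scaled to library size, vertical axes from 0) of the 9 scaffold genes in each void mouse (grey) and each DHT mouse (red), numbered by replicate, with bars giving the group mean and SD of 5 mice. For every gene the ranges of the groups overlap, and DHT mouse 6 holds the highest Shank1, Shank2 and Shank3 levels and the lowest Dlg1 level of all 10 mice.

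Among the Dlg genes, which encode membrane-associated guanylate kinases with PDZ domains, Dlg2 (ENSMUSG00000052572), coding for PSD-93, had the largest log2 fold change of the 9 genes with TMM scaling. Dlg2 stood at 583, 557, 529, 532 and 589.8 CPM in void mice 4, 5, 9, 10 and 11, and at 495, 544, 483, 467 and 499 CPM in DHT mice 1, 2, 3, 5 and 6. All 5 DHT mice lay below the void mean and 4 lay below every void mouse, with DHT mouse 2 inside the void range. The means were 558 ± 28.3 CPM against 498 ± 28.8 CPM (SD, n = 5 each), a log2 fold change -0.17 (SE 0.06, adjusted p = 0.131, edgeR). The unadjusted p from edgeR was 0.0132, and DESeq2 called Dlg2 lower in DHT mice at -0.19 (adjusted p = 0.0490). With scaling on pan-neuronal genes the log2 fold change of Dlg2 was -0.03, where the median of all genes was 0.14. Over the alternative settings the adjusted p of Dlg2 ranged from 0.0490 to 0.911.

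Dlg4 (ENSMUSG00000020886), coding for PSD-95, the Dlg protein that marks mature excitatory synapses, showed no detected difference in mean. Dlg4 stood at 657, 696, 761, 737 and 762 CPM in void mice 4, 5, 9, 10 and 11, and at 672, 662, 585, 750.02 and 834 CPM in DHT mice 1, 2, 3, 5 and 6. The lowest and the highest of the 10 values were both in DHT mice, which spread more widely than the void mice. Its means were 723 ± 45.2 CPM against 701 ± 94.8 CPM (SD, n = 5 each), a log2 fold change -0.04 (SE 0.09, adjusted p = 0.875, edgeR). It was -0.11 without DHT mouse 6 or without DHT mouse 5, and -0.01 without DHT mouse 3. Dlg3 (ENSMUSG00000000881), coding for SAP102, a scaffold prominent in young neurons, stood at 265 ± 20.3 CPM against 249 ± 11.8 CPM (SD, n = 5 each), a log2 fold change -0.09 (SE 0.06, adjusted p = 0.521, edgeR). All 5 DHT mice lay below the Dlg3 void mean, but none lay below void mouse 5, whose 230.1 CPM was far under the other void mice. Without that mouse its log2 fold change was -0.14, not called by edgeR. Dlg1 (ENSMUSG00000022770), coding for SAP97, which accompanies AMPA receptors through the secretory route, had 167 ± 12.4 CPM against 154 ± 13.5 CPM (SD, n = 5 each), a log2 fold change -0.11 (SE 0.07, adjusted p = 0.487, edgeR), with 1 of 5 DHT mice below all void mice. Without DHT mouse 6 the log2 fold change of Dlg1 was -0.07.

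Dlgap1 (ENSMUSG00000003279) encodes GKAP, which binds the guanylate kinase domain of Dlg proteins and also binds Shank. Dlgap1 stood at 829, 838, 843, 862 and 934 CPM in void mice 4, 5, 9, 10 and 11, and at 801, 780.4, 734, 830.3 and 859 CPM in DHT mice 1, 2, 3, 5 and 6. All 5 DHT mice lay below the void mean and 3 lay below every void mouse. The means were 861 ± 42.2 CPM against 801 ± 47.8 CPM (SD, n = 5 each), a log2 fold change -0.10 (SE 0.06, adjusted p = 0.406, edgeR).

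The Shank genes encode the large scaffolds of the deeper layer, which tie Dlgap and Homer to the actin cytoskeleton. Shank1 stood at 629, 640.3, 848, 787 and 758 CPM in void mice 4, 5, 9, 10 and 11, and at 654, 602, 532, 672 and 1056 CPM in DHT mice 1, 2, 3, 5 and 6. DHT mouse 6 was far above the other 9 mice, and DHT mouse 3 was lowest. Shank3 stood at 243, 218, 335, 311 and 264 CPM in void mice 4, 5, 9, 10 and 11, and at 264, 229, 202, 295 and 397 CPM in DHT mice 1, 2, 3, 5 and 6. The same mouse 6 was highest and the same mouse 3 lowest, with the other DHT values inside the void range. Shank2 stood at 258, 248, 275, 282 and 283 CPM in void mice 4, 5, 9, 10 and 11, and at 244, 240.5, 211, 246 and 297 CPM in DHT mice 1, 2, 3, 5 and 6. Here 4 of 5 DHT mice lay below every void mouse and DHT mouse 6 lay above them all.

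Shank1 (ENSMUSG00000038738) averaged 733 ± 95.3 CPM against 703 ± 204 CPM (SD, n = 5 each), a log2 fold change -0.06 (SE 0.16, adjusted p = 0.911, edgeR). Shank2 (ENSMUSG00000037541) averaged 269 ± 15.4 CPM against 247 ± 30.9 CPM (SD, n = 5 each), a log2 fold change -0.12 (SE 0.08, adjusted p = 0.510, edgeR). Shank3 (ENSMUSG00000022623) averaged 274 ± 48.3 CPM against 277 ± 75.3 CPM (SD, n = 5 each), a log2 fold change 0.02 (SE 0.17, adjusted p = 0.981, edgeR). None of these differences exceeded the spread between mice. Without DHT mouse 6 the log2 fold changes of Shank1, Shank2 and Shank3 were -0.25, -0.20 and -0.15, with adjusted p from edgeR of 0.230, 0.125 and 0.670. Leaving out other mice moved them the other way, to -0.00 for Shank1 and 0.08 for Shank3 without DHT mouse 3, and to -0.00 and 0.10 without void mouse 9. Over the alternative settings these adjusted p-values ranged from 0.230 to 0.999 for Shank1, from 0.0751 to 0.958 for Shank2 and from 0.621 to 0.9995 for Shank3.

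Homer1 (ENSMUSG00000007617) encodes the adaptor between Shank, metabotropic glutamate receptors and inositol trisphosphate receptors, and its short form Homer1a is made after neuronal activity. Homer1 stood at 271, 184, 209.6, 217 and 226 CPM in void mice 4, 5, 9, 10 and 11, and at 208, 262, 237, 169 and 170.3 CPM in DHT mice 1, 2, 3, 5 and 6. The groups overlapped over most of their range, with DHT mice 5 and 6 lowest and void mouse 4 highest. The means were 221 ± 31.6 CPM against 209 ± 40.8 CPM (SD, n = 5 each), a log2 fold change -0.08 (SE 0.13, adjusted p = 0.839, edgeR). It was 0.002 without void mouse 4, -0.01 without DHT mouse 6 and -0.17 without DHT mouse 2. Counts per gene do not separate the long forms from Homer1a.

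Across the whole table edgeR called 920 of 17622 genes higher in DHT mice (5.22%) and 46 lower (0.261%), ranging from 351 to 1072 higher and from 5 to 77 lower when each mouse was left out in turn. It called 0 of the 9 scaffold genes. DESeq2 called 1 of the 9 lower, Dlg2, beside 233 genes (1.16%) over its own table. At an unadjusted p under 0.05 edgeR had 1 of 9 lower, again Dlg2, beside 743 genes (4.22%), and DESeq2 had 2 of 9 beside 1229 genes (6.13%). No scaffold gene had every DHT mouse below every void mouse, which was so for 155 genes (0.88%). With TMM scaling 8 of the 9 log2 fold changes were negative, beside 47.6% of all genes tested. The median of the 9 was -0.09, beside 0.01 over all genes tested. With scaling on pan-neuronal genes 1 of 9 was negative, beside 16.2% of all genes. That scaling moved the median of all genes to 0.14 and of the scaffold genes to 0.04, which is -0.10 relative to all genes, and all 9 lay below the all-gene median. Shank3, the 1 positive gene with TMM scaling, took either sign, from -0.20 to 0.14 over the alternatives. The intervals of 2 standard errors reached down to -0.28 for Dlg2 and -0.39 for Shank1, and up to 0.36 for Shank3.

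**Figure D2:**
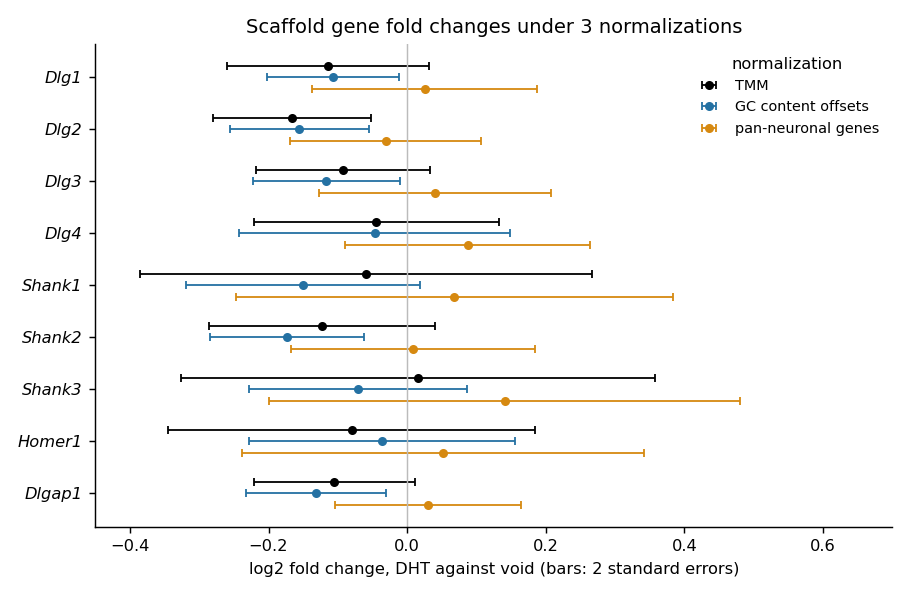
Log2 fold change (DHT against void, horizontal axis) of each scaffold gene with bars of 2 standard errors, under TMM scaling (black), offsets for GC content (blue) and scaling on pan-neuronal genes (orange), 5 mice per group. Dlg2 is below 0 under all 3, Shank1 and Shank3 have the widest bars under TMM, and the other 8 genes are above 0 with scaling on pan-neuronal genes.

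The summed level of 12 pan-neuronal markers was 7934, 8812, 7964, 8185 and 8457 CPM in void mice 4, 5, 9, 10 and 11 and 6917, 7823, 7394, 7751 and 7789 CPM in DHT mice 1, 2, 3, 5 and 6. Every DHT mouse was below every void mouse, with means of 8270.5 ± 369 and 7535 ± 386 CPM (SD, exact permutation p = 0.00794, the smallest that 5 against 5 mice can give, and 0.0265 adjusted over 10 marker lists). All 12 genes of that list had negative log2 fold changes with TMM scaling, and Map2 was the most abundant at 2006 and 1772 CPM. Both edgeR and DESeq2 called 0 of the 12. In each, 3 were lower at an unadjusted p under 0.05, beside 4.22% of all genes in edgeR and 6.13% in DESeq2. With GC offsets edgeR called 1 of the 12 lower, beside 1.71% of all genes. It then had 6 lower at an unadjusted p under 0.05, beside 10.0% of all genes. The log2 ratio of the sums, -0.13, was of the size of the scaffold changes, and its part in them was not tested beyond the scaling on those genes. The sum of 12 excitatory hippocampal markers, led by Slc17a7, showed no detected difference (2851 ± 225 against 2850.1 ± 369.6 CPM, exact permutation p = 1), nor did that of 8 inhibitory markers, led by Gad1 (879 ± 25.0 against 823 ± 105 CPM, exact permutation p = 0.310). Negative log2 fold changes were found for 7 of 12 excitatory markers (median -0.04) and 7 of 8 inhibitory markers (median -0.11). The excitatory list includes markers of the dentate gyrus and CA fields, and its sum ranged from 2330 to 3278 CPM over the 10 mice. Values of single markers per mouse are not given here.

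Among markers of other cells, the sums for microglia and choroid plexus differed between the groups. The sum of 12 microglial markers was 478, 504, 506, 579.7 and 488 CPM in void mice 4, 5, 9, 10 and 11 and 1112, 707, 783, 867 and 791 CPM in DHT mice 1, 2, 3, 5 and 6. It was higher in every DHT mouse, 1.67-fold in the mean (exact permutation p = 0.00794, adjusted 0.0265), with 9 of 12 genes called by edgeR. The sum of 12 choroid plexus markers, led by the thyroid hormone carrier Ttr, was 959.6, 118, 1897, 456 and 125 CPM in void mice 4, 5, 9, 10 and 11 and 3045, 2201, 2154, 2248 and 2470.3 CPM in DHT mice 1, 2, 3, 5 and 6. It was also higher in every DHT mouse, 3.41-fold in the mean (exact permutation p = 0.00794, adjusted 0.0265), with 4 of 12 genes called and void mouse 9 nearest the DHT range. The choroid plexus covariate fitted was not this sum but the mean log2 CPM of the 12 markers. With it the log2 fold changes were -0.21 for Homer1, -0.20 for Shank3, -0.17 for Dlg3, -0.15 for Shank1 and -0.13 for Shank2. They were -0.11 for Dlg2, -0.04 for Dlgap1, -0.02 for Dlg4 and 0.01 for Dlg1. Their standard errors were wider, 0.22 for Homer1, 0.27 for Shank3 and 0.09 for Dlg2, beside 0.13, 0.17 and 0.06 without the covariate. With it edgeR called 0 genes in the whole table, with 977 higher and 236 lower at an unadjusted p under 0.05, beside 966 called, 2316 higher and 743 lower without it and 1461 called by DESeq2 without it. The part of microglia in the scaffold values was not tested. The sums for astrocytes, oligodendrocytes, endothelium, striatum and thalamus had exact permutation p-values of 0.302, 0.111, 0.976, 0.127 and 0.984, led by Slc1a2, Mbp, Flt1, Pde10a and Rora. Of these edgeR called 1 of 8 astrocyte and 1 of 8 striatal genes higher, beside 5.22% of all genes. At an unadjusted p under 0.05, 4 of 8 astrocyte and 3 of 8 oligodendrocyte genes were higher, beside 13.1% of all genes. At that limit 1 of 6 thalamic genes was lower, beside 4.22% of all genes. Negative log2 fold changes were found for 1 of 8 astrocyte, 1 of 8 oligodendrocyte, 5 of 6 endothelial, 5 of 8 striatal and 3 of 6 thalamic genes. No marker gene of the 10 lists was at 0 in all mice.

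As deviations from the group means, the scaffold genes did not all vary together, and their base composition was compared with how they varied. The 6 genes whose coding sequence exceeds 50% G and C were Shank3 (64.6%), Shank1 (63.6%), Shank2 (58.9%), Dlgap1 (57.7%), Dlg4 (56.8%) and Dlg3 (53.7%), and the 3 below it were Homer1 (46.5%), Dlg2 (46.3%) and Dlg1 (45.5%). The first 90 coding bases of the scaffold genes with the most GC-rich and the most GC-poor longest transcripts are given 5′ to 3′ from GENCODE M21, with G and C in capitals, because the genes they start differ most in composition. G and C make up 82.2% of this window in Shank3, 64.4% in Shank1, 48.9% in Homer1 and 46.7% in Dlg1. These are not the extremes of the window itself, which is lowest in Dlg2 (31.1%) and higher in Dlg4 (65.6%) than in Shank1.
Shank3: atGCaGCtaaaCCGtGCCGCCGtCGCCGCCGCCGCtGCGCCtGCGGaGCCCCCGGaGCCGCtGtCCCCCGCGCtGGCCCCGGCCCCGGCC
Shank1: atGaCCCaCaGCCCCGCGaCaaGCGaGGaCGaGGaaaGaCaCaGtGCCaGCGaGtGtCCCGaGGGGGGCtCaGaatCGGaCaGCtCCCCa
Homer1: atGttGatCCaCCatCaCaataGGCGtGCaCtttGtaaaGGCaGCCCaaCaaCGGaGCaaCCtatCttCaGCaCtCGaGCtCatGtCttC
Dlg1: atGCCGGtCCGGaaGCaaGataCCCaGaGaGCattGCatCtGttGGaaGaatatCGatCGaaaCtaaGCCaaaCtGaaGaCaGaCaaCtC

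Over all tested genes with a known GC content, each library was described by its tilt, the median log2 deviation in the most GC-rich of 20 equal bins of genes minus that in the most GC-poor. Shank1 and Shank3 fall in that most GC-rich bin and Homer1 in that most GC-poor bin. Their relation to the tilt was not compared with that of the other genes in those bins. The tilt was -0.32, -0.26, 0.34, 0.07 and -0.16 in void mice 4, 5, 9, 10 and 11 and -0.18, -0.24, -0.37, 0.41 and 0.69 in DHT mice 1, 2, 3, 5 and 6. It was steepest in DHT mouse 6, and the groups overlapped, with means of -0.07 ± 0.27 and 0.06 ± 0.46 (SD, exact permutation p = 0.619). As deviations from the group mean over the 10 mice, Shank1 moved with the tilt at r = 0.89 (permutation p = 6.94e-05; rho = 0.90, permutation p = 6.94e-05), both p-values being the smallest that the 14400 arrangements within groups can give. Shank3 moved with it at r = 0.94 (permutation p = 0.000139; rho = 0.89, permutation p = 0.00153), and Dlg4 at r = 0.91 (permutation p = 0.000972; rho = 0.92, permutation p = 0.00215). Dlg1 moved against it at r = -0.84 (permutation p = 0.00222; rho = -0.76, permutation p = 0.0251). Shank2 had r = 0.80 (permutation p = 0.00757), Homer1 -0.71 (permutation p = 0.0585), Dlg3 0.53 (permutation p = 0.0872), Dlgap1 0.61 (permutation p = 0.0991) and Dlg2 -0.47 (permutation p = 0.222), and rho was 0.81 (0.00472), -0.82 (0.0182), 0.64 (0.0426), 0.72 (0.0281) and -0.41 (0.292) in the same order, with permutation p in brackets. A permutation p under 0.05 was found for 5 of the 9 scaffold genes by r, beside 6713 of 17622 genes (38.1%), and for 8 of the 9 by rho, beside 6098 genes (34.6%), so the relation ran through much of the table. The sign of r was that of the coding GC content relative to 50% in all 9 genes, but the bins rest on the longest transcript, by which Dlg4, at 46.8%, is GC-poor although it moved with the tilt. Without DHT mice 5 and 6, the 2 libraries farthest from the median tilt, r was 0.92 for Shank3, 0.93 for Shank1, 0.80 for Dlg4 and -0.80 for Dlg1, and 0.33 for Dlgap1. Without DHT mouse 6 and void mouse 9, farthest once the tilt was centred by group, r was -0.56 for Dlg1 and 0.30 for Dlg3, and no gene changed sign in either case. Values of r without 2 libraries keep the deviations from the means of all 5 mice of a group. The deviations were not centred again, so an offset between the groups enters these values. These 9 relations were looked at after the values were seen, and their p-values are unadjusted.

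**Figure D3:**
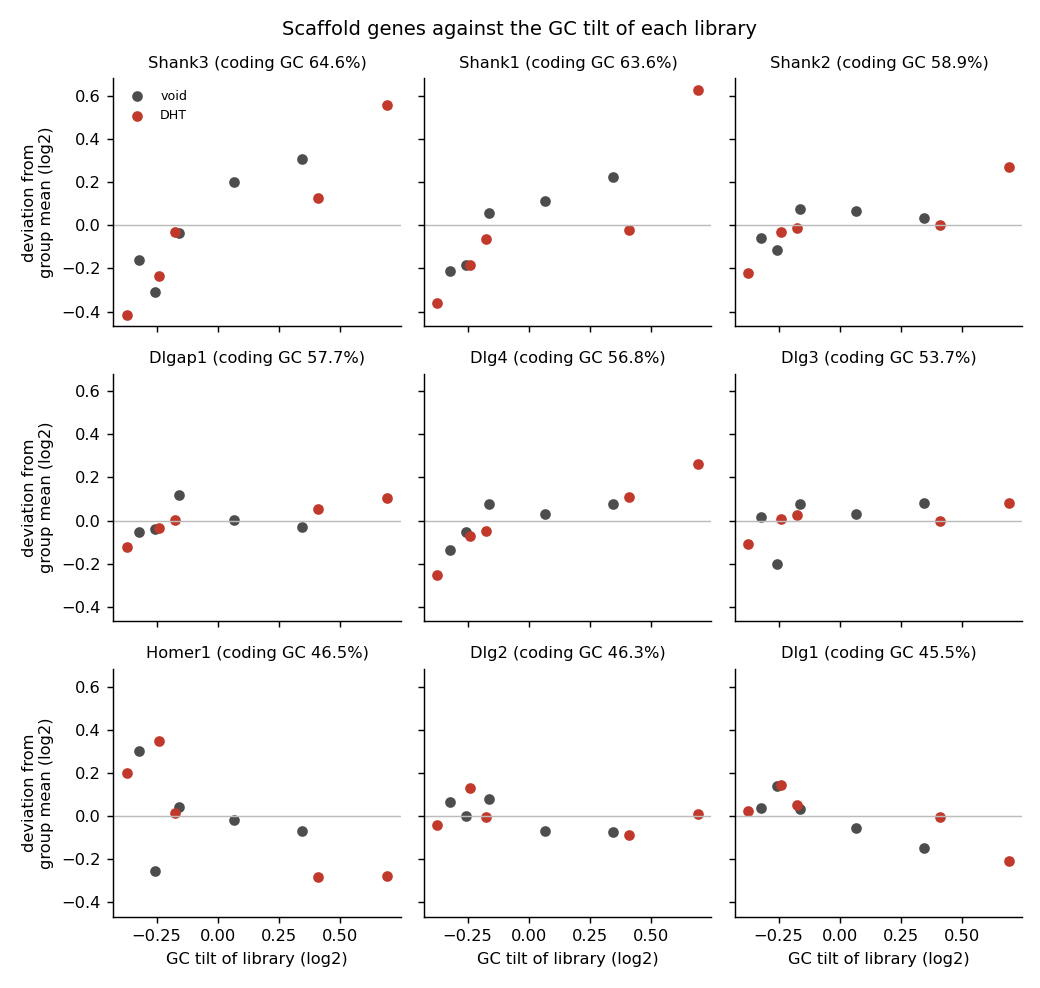
Deviation of each scaffold gene from its group mean (log2, vertical axes) against the GC tilt of the library (log2, horizontal axes), 1 point per mouse, void in grey and DHT in red, with panels ordered from the highest to the lowest coding GC content. Points rise to the right for Shank3, Shank1 and Dlg4 and fall to the right for Dlg1 and, apart from void mouse 5 at the lower left, for Homer1.

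With offsets for GC content in each library, an alternative chosen after seeing the data, the spread of Shank1 and Shank3 narrowed. The coefficient of variation of Shank1 went from 13.0% to 5.57% in void mice and from 29.1% to 13.7% in DHT mice. For Shank3 it went from 17.6% to 8.33% and from 27.2% to 10.9%. It also narrowed in both groups for Dlg1, Dlg3, Shank2 and Homer1, for example from 12.5% to 6.97% for Shank2 in DHT mice. For Homer1 in DHT mice it went from 19.5% to 10.2%. In 1 group alone it narrowed for Dlg2 (void, 5.06% to 3.06%) and Dlgap1 (DHT, 5.97% to 4.04%). It widened for Dlg2 in DHT mice (5.78% to 6.72%), for Dlgap1 in void mice (4.90% to 6.06%) and in both groups for Dlg4, whose longest transcript, used for the offsets, is 46.8% G and C, below its coding sequence. With these offsets all 9 log2 fold changes were negative, beside 53.1% of all genes, whose median was -0.01. Shank2 was at -0.17 (SE 0.06), Dlg2 at -0.16 (SE 0.05), Shank1 at -0.15 (SE 0.08) and Shank3 at -0.07 (SE 0.08). edgeR again called 0 of 9, beside 296 genes lower in the table (1.71%), and DESeq2 without offsets called 1. At an unadjusted p under 0.05, 5 of the 9 were lower with these offsets, beside 1731 of 17282 genes (10.0%). The 5 were Dlg1 (log2 fold change -0.11), Dlg2, Dlg3 (-0.12), Shank2 and Dlgap1 (-0.13).

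The proportions within each family showed no difference between the groups beyond their spread. In the summed RPKM of Dlg1 to Dlg4, Dlg4 made up 36.4 ± 1.59% in void and 37.5 ± 3.09% in DHT mice (SD, n = 5, exact permutation p = 0.492), and Dlg2 22.9 ± 1.27% and 21.8 ± 1.55% (exact permutation p = 0.254). Among Shank1 to Shank3, Shank1 made up 55.9 ± 1.03% and 55.4 ± 1.90% (exact permutation p = 0.611), and Shank3 23.9 ± 1.52% and 25.1 ± 1.29% (exact permutation p = 0.222). That last p was the smallest of the 7 shares computed.

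Genes that varied most like each scaffold gene within groups were found among 11911 genes, by Pearson r over the 10 mice and without a test. Dlg4 went with Panx2 and with the synaptic vesicle gene Syn1 (r = 0.99 each), and Shank3 with Wdr81 and the AMPA receptor auxiliary gene Cnih2 (r = 0.99 each). Shank2 went with the calcium pump gene Atp2b2 (r = 0.99) and Cyfip2 (r = 0.97), and Shank1 with Nol4l (r = 0.99) and Ski (r = 0.98). Dlg3 went with Slitrk5 and Plxna4 (r = 0.98 each), and Dlgap1 with Sobp (r = 0.98) and Smad3 (r = 0.96). Homer1 went with Shprh (r = 0.99) and Selenoi (r = 0.98), Dlg1 with Nsmce4a (r = 0.98) and Nsmce2 (r = 0.97), and Dlg2 with the synaptic adhesion gene Lrfn5 (r = 0.97) and Prepl (r = 0.96). The library tilt in GC content is shared by all these points, and its part in these values of r was not tested.

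Other genes of the postsynaptic density were read from the same edgeR fit with TMM scaling, in which the median over all genes was 0.01 and 47.6% were negative. Over all genes 4.22% were lower and 13.1% higher at an unadjusted p under 0.05, and 1.16% were called lower by DESeq2 and 1.71% by edgeR with GC offsets. Among 23 receptors and adhesion proteins anchored by the scaffolds, 22 log2 fold changes were negative with a median of -0.12, edgeR called 0, and 5 were lower at an unadjusted p under 0.05. The lowest p-values were those of Gria3 at -0.18 (SE 0.06, adjusted p = 0.115), an AMPA receptor subunit, Cacng2 at -0.21 (SE 0.07, adjusted p = 0.117), the AMPA receptor partner stargazin that binds Dlg4, and Adam22 at -0.15 (SE 0.06, adjusted p = 0.174), the receptor of Lgi1. DESeq2 called 2 of the 23, Gria3 and Cacng2, and edgeR with GC offsets called 1, Cacng2. With scaling on pan-neuronal genes 10 of the 23 were negative, beside 16.2% of all genes, and 22 lay below the all-gene median.

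Among 18 other scaffold family members 15 were negative, with a median of -0.07, edgeR called 0, and 3 were lower at an unadjusted p under 0.05. They were Cnksr2 at -0.23 (SE 0.09, adjusted p = 0.191), Lrrc7 at -0.22 (SE 0.09, adjusted p = 0.225), which codes for densin-180, and Tanc2 at -0.14 (SE 0.06, adjusted p = 0.269). DESeq2 called 0 of the 18, and with GC offsets edgeR called 0 and had 9 lower at an unadjusted p under 0.05, beside 10.0% of all genes. The median was -0.12 without void mouse 5, without DHT mouse 5 or without DHT mouse 6, and -0.14 with the choroid plexus covariate. The medians of all genes in these fits were 0.02, -0.03, 0.003 and 0.01 in the same order. With scaling on pan-neuronal genes 4 were negative, beside 16.2% of all genes, but 15 lay below the all-gene median, as they did with TMM. Among 20 signalling enzymes and regulators 13 were negative, with a median of -0.02, edgeR called 0, and 3 were lower at an unadjusted p under 0.05, Cit at -0.28 (SE 0.11, adjusted p = 0.196), Psd3 at -0.20 (SE 0.09, adjusted p = 0.251) and Nos1 at -0.20 (SE 0.09, adjusted p = 0.251), the nitric oxide synthase that binds Dlg4. All 3 were called lower with GC offsets, and DESeq2 called 0 of the 20. Their median was -0.07 with 18 negative under GC offsets, where 53.1% of all genes were negative. It was -0.10 with 17 negative without DHT mouse 6, where 49.2% of all genes were negative. With scaling on pan-neuronal genes 3 were negative, beside 16.2% of all genes, but 15 lay below the all-gene median, as they did with TMM.

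Among 10 genes of PSD-95 palmitoylation and turnover 4 were negative, with a median of 0.02, and edgeR called 0. The median turned to -0.04 without DHT mouse 5, where that of all genes was -0.03. It turned to -0.02 without void mouse 11 (all genes -0.02) or without DHT mouse 6 (all genes 0.003). It was also negative with the choroid plexus covariate (-0.03, all genes 0.01) and with DESeq2 (-0.01, all genes -0.02). The same held with the size factors of DESeq2 in edgeR (-0.01, all genes -0.02) and without DHT mouse 1 (-0.00, all genes -0.02). At an unadjusted p under 0.05 edgeR had 1 higher, the ubiquitin ligase gene Mdm2 at 0.19 (SE 0.07, adjusted p = 0.178), and 0 lower, a share of higher genes under that of the table. DESeq2 called 0 of the 10. With scaling on pan-neuronal genes edgeR called Mdm2 higher at 0.33, beside 1889 genes called higher in the whole table. The palmitoyltransferase gene Zdhhc17 at -0.10 (SE 0.07, adjusted p = 0.509) was not called. Of 14 immediate early genes, to which the Homer1a form belongs, 12 were negative with TMM scaling, beside 47.6% of all genes. With scaling on pan-neuronal genes 10 were negative, beside 16.2% of all genes, and the median of the 14 relative to all genes was -0.29. With TMM scaling the median of the 14 was -0.27. Npas4 at -0.72 (SE 0.41, adjusted p = 0.430), Egr3 at -0.12 (SE 0.07, adjusted p = 0.479) and Btg2 at -0.39 (SE 0.25, adjusted p = 0.496) were lowest in p. The median was -0.10 without void mouse 5 and -0.46 without void mouse 11. Both edgeR and DESeq2 called 0 of the 14 and had 0 at an unadjusted p under 0.05.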

How the data were processed

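Bulk RNA-seq of the hippocampus was measured in 10 female P301S mice, 5 with a void and 5 with a DHT implant, with 1 poly(A)-selected library per mouse. The authors deposited whole-number counts per gene, not normalized. Their notes name HTStream for trimming, STAR 2.7.10b for alignment and DESeq2 1.42.0. The methods give the build as mm10 and the processing notes as GRCm39 (mm39), and the annotation release, strand setting and treatment of reads matching several genes are not stated. Of 56884 gene rows, 51948 had a symbol in GENCODE M21 (GRCm38), of which 51911 carried a later version number. The counts thus rest on a later annotation than M21, and no later one was at hand. M21 was used for names, exon lengths, GC content and coding sequence, which may differ from the release behind the counts. No coordinates are given. Annotated genes overlapping Dlg2, Shank1, Shank3 and Dlgap1 held between 36 and 511 counts over the 10 libraries, beside 98119 to 299736 for those scaffold genes.

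Treatment groups follow the labels. The fit used edgeR 4.0.16 (R 4.3.3) on all genes kept by its filter on low counts, 17622 in number, with TMM scaling and quasi-likelihood F tests. A gene counted as called where its Benjamini-Hochberg adjusted p was under 0.05. Each standard error is the size of the log2 fold change over the root of F. CPM are counts scaled to the TMM library size, and RPKM divide them by the length of all annotated exons of a gene merged. Single values (marker sums, family shares, total counts, tilt) were compared by exact permutation over mice, both sides counted, which with 5 against 5 can give no p below 0.00794. Correlations use deviations of log2 CPM (prior count 2) from the group mean, permuted within groups. Tests were tried on simulated data, with no outcome reported here and no conclusion drawn from it. The 9 genes and the lists were chosen with earlier results of these data known, so no test was made over the 9 as a set or over any list of postsynaptic genes. The marker sums that were tested include those of neuronal lists.

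All 9 scaffold genes are named. From each list of postsynaptic genes the 3 with the lowest p are named, plus any called gene up to 8 a list, apart from genes not used here. For each scaffold gene the 2 genes outside the 9 with the highest Pearson r are named, among genes with a mean of at least 5 CPM. Each marker list but the microglial is given with its most abundant gene.

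Alternatives were DESeq2 1.42.0, its size factors within edgeR, library size alone, scaling on pan-neuronal genes, no filter beyond 1 count, at least 10 counts in every library, the choroid plexus level as a covariate, the log2 fold limit of 1 that the study states, and leaving out each mouse. The choroid plexus level was the mean log2 CPM (prior count 2) of its 12 markers. Offsets for GC content, the median log2 deviation of a library in each of 20 bins of genes, were chosen after seeing the data and cover 17282 genes. The numbers in the sample titles place all void libraries (4, 5, 9, 10 and 11) before all DHT libraries (18, 19, 20, 22 and 23). Their meaning is not stated, and that order and the treatment cannot be told apart.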

Additional observations from a re-analysis of the deposited data

Results flagged for a closer look

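In 42 groups of 5 mice, the gap between the highest or lowest mouse and its nearest neighbour was divided by the range of the group, and a value above 0.71 was marked. Chance marks about 1 in 20 groups, or 2.1 of 42, and 4 were marked. Among the scaffold genes, void mouse 5 lay far below the other void mice for Dlg3 (0.752), and DHT mouse 6 lay far above the other DHT mice for Shank1 (0.732). Among the marker sums, void mouse 10 lay far above the other void mice for microglia (0.717), and DHT mouse 1 far above the other DHT mice for astrocytes (0.797). DHT mouse 6 also had the steepest GC tilt, 0.69, and the cause of its Shank1 level was not tested.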

How the results depend on the processing

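With scaling on pan-neuronal genes, 7 scaffold genes had the opposite sign, Dlg1 at 0.0250, Dlg3 at 0.0396, Dlg4 at 0.0871, Shank1 at 0.0678, Shank2 at 0.00886, Homer1 at 0.0512 and Dlgap1 at 0.0300. Of the 9, 1 was negative, beside 16.2% of all genes, and the median of the 9 was 0.0396. Both follow from the scaling, since the median of all genes moved to 0.14 and the scaffold median relative to it was -0.10 with either scaling. Under that scaling 1889 genes were called higher and 8 lower, and 1 gene of PSD-95 palmitoylation and turnover was called higher. Shank3, at 0.02 with TMM, was -0.0116 with DESeq2, -0.0123 with its size factors in edgeR, -0.201 with the choroid plexus covariate and -0.0709 with GC content offsets. The medians of all genes were -0.0164, -0.0177, 0.00876 and -0.0117 in the same order, beside 0.00937 with TMM. Dlg1 was 0.00704 with the choroid plexus covariate, which left 0 genes called higher and 0 lower in edgeR, with 977 and 236 at an unadjusted p under 0.05. DESeq2 called 233 genes lower, 1 scaffold gene and 2 receptors and adhesion proteins lower. GC content offsets, chosen after seeing the data, gave 296 genes lower, 3 signalling enzymes and regulators lower and 1 receptor lower. The fold limit of the study left 382 genes higher and 4 lower. When each mouse was left out in turn, genes higher ranged from 351 to 1072 and lower from 5 to 77, Shank3 from -0.148 to 0.0991, Homer1 from -0.174 to 0.00229 and receptors and adhesion proteins called lower from 0 to 1. Genes higher were over 1.5 times fewer without void mouse 10 (552), 11 (351) or 4 (493), or DHT mouse 1 (395) or 3 (518). Genes lower moved by over 1.5 times without void mouse 10 (11), 11 (5) or 4 (9), or DHT mouse 1 (13), 2 (77), 3 (20) or 6 (29). The cause was not tested. Dlg2 kept its negative sign in all 18 alternatives, from -0.20 to -0.03. Mice could not be paired, since replicate number 5 is the only number that occurs in both groups. According to the paper, cages held mice of a single treatment and littermates were randomized. Neither cage nor litter is labelled per library, so cage and treatment cannot be told apart. With 5 mice per group the standard errors of the scaffold genes, 0.06 to 0.17 on the log2 scale, limit what could be called.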
